A study of Homo sapiens with 12 samples.

Results

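The expression of 9 genes of pericellular proteolysis was followed in AsPC-1, a long-established line of human pancreatic ductal adenocarcinoma cells, after loss of the transcriptional repressor BACH1. They are the plasminogen activators *PLAT* and *PLAU*, the receptor *PLAUR*, the inhibitors *SERPINE2* and *SERPINB2*, the matrix metalloproteinases *MMP1*, *MMP7* and *MMP14*, and the metalloproteinase inhibitor *TIMP1*. All 9 were found by Ensembl identifier among the 57820 genes of both count tables. RNA depleted of rRNA was sequenced in 12 libraries, 3 in each of 4 groups. SiBACH1 cells received a *BACH1*-directed small interfering RNA (siRNA), with siCont as their control group, and both groups were collected 24 h after transfection. SgBACH1 cells carry a lentiviral Cas9 vector with a guide against *BACH1*, and sgCont cells are their controls. Both of these groups were selected in 10 µg/ml puromycin. The sources used here give no sequence for the siRNA, its control or the control guide, and do not say whether the selected cells were a pool or 1 clone. The guide is shown because it defines the knockout group, with the NGG motif next to the target in capitals.
BACH1 guide: ccactcaagaatcgtaggccAGG

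Plasminogen activators are serine proteases that cut the circulating zymogen plasminogen into plasmin, a broad protease that dissolves fibrin and matrix. Tissue-type activator (*PLAT*) works mainly on fibrin, whereas urokinase (*PLAU*) is held at the cell surface by its receptor (*PLAUR*), and serpins such as nexin-1 (*SERPINE2*) and PAI-2 (*SERPINB2*) trap both enzymes. Matrix metalloproteinases are zinc enzymes that cut collagens, proteoglycans and surface proteins, and TIMPs block their active sites. In pancreatic ductal cancer the urokinase system and several metalloproteinases are known from invasive growth and from the reaction around the tumour.

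Promoter sequence is shown for the members in which 1 of 2 motifs was found, since BACH1 dimerises with small MAF proteins on elements that contain an AP-1-like core. The motifs were TGANTCA, the core bound by AP-1 and nested in many BACH1 elements, and TGACNNNGC, the core of the antioxidant response element, each searched on both strands from 250 bases before to 50 after the start site. The RefSeq table (GRCh38.p14) held promoters for 7 of the 9 members, with none listed for *PLAT* and *MMP1*. TGANTCA was found in 7.71% and TGACNNNGC in 13.3% of all 35116 promoters of that length. Each line gives the promoter strand 5′ to 3′, with the match in capitals.
*PLAUR* (chr19:43670327-43670375, minus strand): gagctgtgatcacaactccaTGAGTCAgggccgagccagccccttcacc
*MMP7* (chr11:102530786-102530834, minus strand): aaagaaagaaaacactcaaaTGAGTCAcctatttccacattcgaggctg
*SERPINB2* (chr18:63887583-63887631, plus strand): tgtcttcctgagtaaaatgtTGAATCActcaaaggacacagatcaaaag
*PLAU* (chr10:73910422-73910470, plus strand): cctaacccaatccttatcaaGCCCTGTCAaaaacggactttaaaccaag
*SERPINE2* (chr2:224031544-224031669, minus strand): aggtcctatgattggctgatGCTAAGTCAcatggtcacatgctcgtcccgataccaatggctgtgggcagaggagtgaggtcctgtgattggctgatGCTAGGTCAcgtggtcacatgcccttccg
The TGANTCA matches begin 186 bases before the start of *PLAUR*, 67 before that of *MMP7* and 102 before that of *SERPINB2*. The TGACNNNGC matches lie on the opposite strand, 168 bases before the start of 1 of the 2 listed *PLAU* promoters and 171 and 94 before that of 1 of the 2 listed *SERPINE2* promoters. The *MMP14* and *TIMP1* windows held neither string. A match is a string of letters and not a measured binding site.

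Library depth ran from 13099706 to 21478886 counts. The labels do not describe the replicates as separate cultures, and the p-values then rest on a spread between libraries that may be technical. SiCont replicate 2 stood apart from its group: chi-square per degree of freedom over genes was 30.5 and 35.8 against siCont replicates 1 and 3, and 8.89 between those 2. Values without it are given for the 8 members tested and for 4 other genes after the siRNA. *BACH1* stood at 24.6 to 27.5 CPM (counts adjusted for library size with TMM factors over the 12 libraries) in siBACH1 against 195.0 to 289.1 in siCont, and at 186.5 to 219.9 in sgBACH1 against 270.1 to 294.8 in sgCont. Whole-gene counts do not show what a guide does to the protein. All 7 ductal epithelial markers searched were present in every group. Their summed level was 11292 to 12865 CPM in siCont, 12776 to 13126 in siBACH1, 18902 to 20624 in sgCont and 12169 to 13662 in sgBACH1. Keratins held most of that sum, and the list was split between sgCont and sgBACH1. Counts were lower in sgBACH1 for *KRT8* (542920 and 370707), *KRT18* (249564 and 159199), *KRT19* (147091 and 126012) and *KRT7* (550 and 171). They were higher in sgBACH1 for *EPCAM* (19977 and 30989), *CDH1* (4352 and 6899) and *MUC1* (3444 and 4762). Blood cell and endothelial markers summed to at most 4.39 and 0.894 CPM. Of 7 fibroblast markers, *LUM* held nearly all counts (13062, 20397, 6072 and 2582 in siCont, siBACH1, sgCont and sgBACH1), while the other 6 had at most 28 counts in a group and *PDGFRA* had 0 in siCont. The part of these differences in the results was not tested. In RNA from whole cultures, fewer cells of a type and less RNA per cell cannot be told apart.

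Both plasminogen activators and *SERPINE2* fell in both experiments, and *PLAUR* and *MMP7* fell after the siRNA. *MMP14* fell in the knockout, a call lost in 5 of 13 alternative fits. No member was called higher in either experiment with all libraries. Of the 8 members tested by edgeR after the siRNA, 5 were called lower and 0 higher (62.5% called, median log2 fold change -0.93), where 23.9% of all 14591 genes were called (10.9% higher, 13.0% lower, median 0.00). Of the 7 tested in the knockout, 4 were called lower and 0 higher (57.1%, median -0.34), where 23.5% of 14469 genes were called (11.3% higher, 12.3% lower, median 0.01). At an unadjusted p below 0.05, 0 members were higher in either comparison, and DESeq2 and limma-voom also called 0 higher. Without siCont replicate 2, *MMP14* was called higher after the siRNA (log2 0.27 ± 0.08 SE, edgeR adjusted p = 0.0113). *SERPINB2* passed the filter on low counts in neither comparison and *MMP1* only in that of the siRNA, so these shares do not cover all 9. The members were also chosen with earlier results of these data known. The shares therefore cannot show that this set responded more than other genes.

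**Figure D1:**
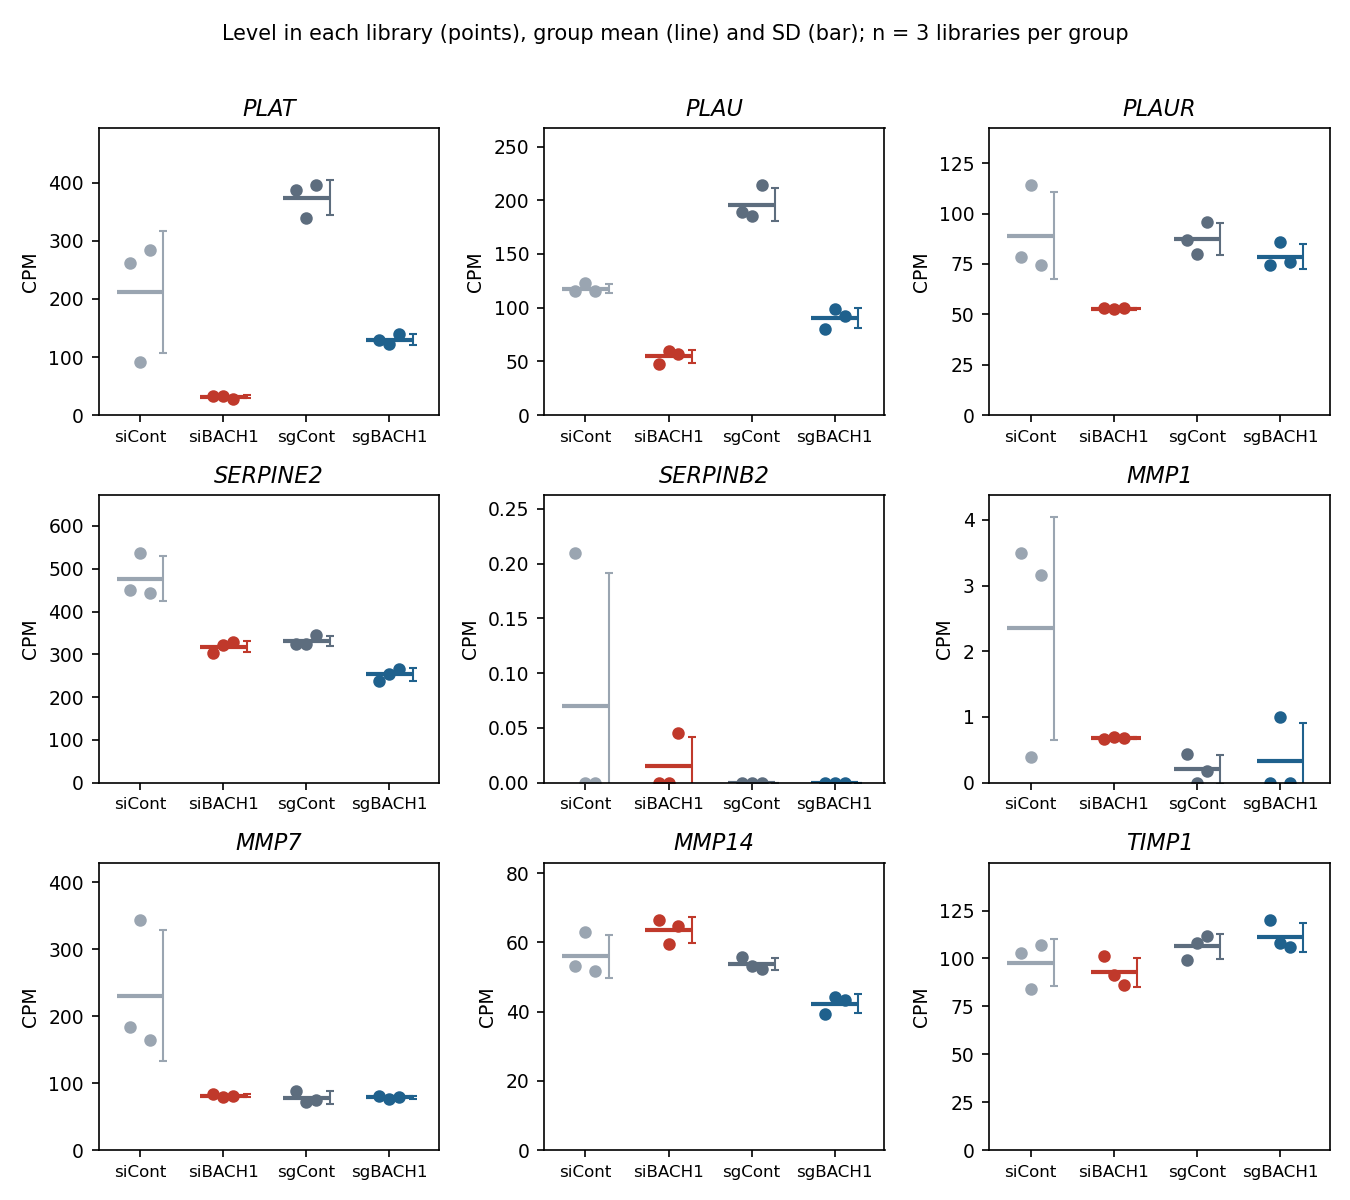
Level of each of the 9 genes in CPM (vertical axis from 0, own scale per panel) in the 12 libraries, by group; points are libraries, horizontal lines group means and vertical bars SD, clipped at 0. The siBACH1 points of *PLAT*, *PLAU*, *PLAUR*, *SERPINE2* and *MMP7* lie below all siCont points, and siCont replicate 2 (the middle point) is the lowest siCont point of *PLAT* and the highest of *MMP7*.

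Levels were compared between genes per kb of exon, the union of GENCODE 29 exons on GRCh38. The order between genes depends on these lengths, which run from 1541 bases for *TIMP1* to 8891 for *SERPINE2*. In CPM without the length, *PLAT* (374.2) and *SERPINE2* (331.4) were the highest members in sgCont, and *TIMP1* stood at 106.3. In sgCont, *TIMP1* and *PLAU* led with 69.0 ± 4.17 and 66.4 ± 5.27 CPM per kb (SD, n = 3), and their libraries overlapped. *PLAT* followed with 56.5 ± 4.50, then *SERPINE2* with 37.3 ± 1.37 and *MMP7* with 33.8 ± 3.87, which overlapped each other. *PLAUR* (19.6 ± 1.80) and *MMP14* (12.04 ± 0.402) came next, and *MMP1* stood at 0.103 ± 0.110 CPM per kb. In siCont the order was another: *MMP7* led with 99.3 ± 42.0 CPM per kb, and *PLAT* (32.1 ± 15.9) stood below *SERPINE2* (53.6 ± 5.85). In siBACH1 *PLAT* was down to 4.79 ± 0.459 CPM per kb, below *MMP14* (14.2 ± 0.818) and *PLAUR* (11.9 ± 0.056). *TIMP1* stayed between 60.2 ± 5.01 and 72.1 ± 4.94 CPM per kb in all 4 groups. The control groups come from separate experiments, so experiment and control treatment cannot be told apart in any difference between siCont and sgCont.

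**Figure D2:**
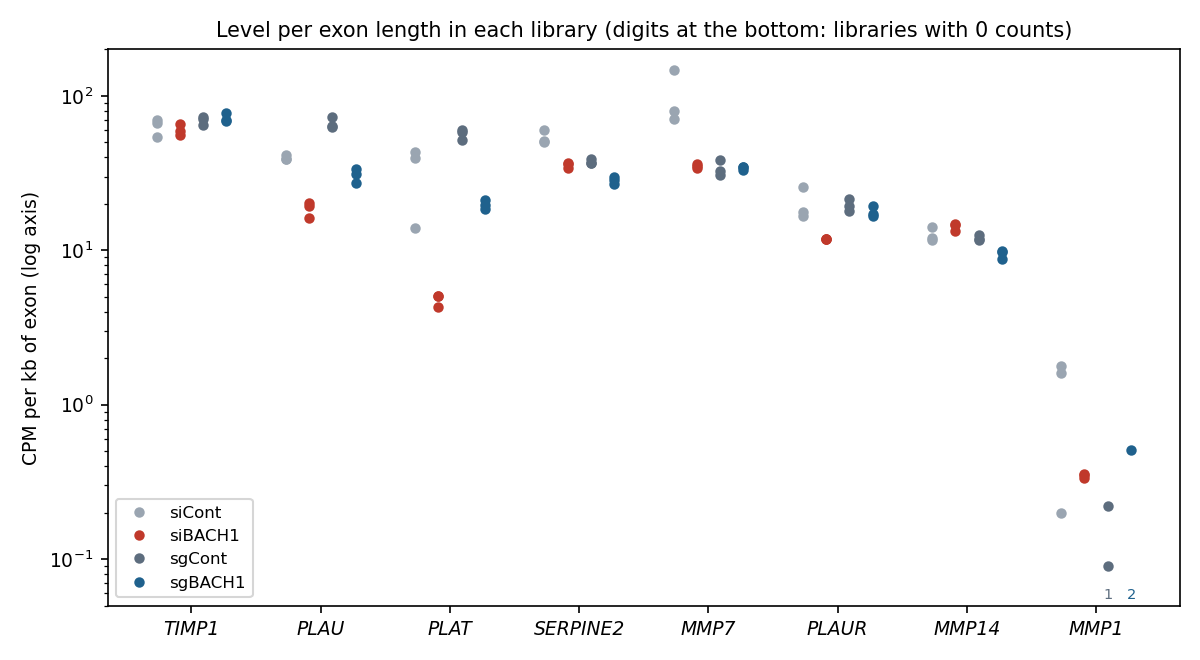
Level per exon length (CPM per kb, log axis) in each library for 8 of the 9 genes, without *SERPINB2*; colours mark the 4 groups, and digits at the bottom give libraries with 0 counts, which a log axis cannot show. *TIMP1* shows the smallest spread between groups, and *PLAT* ranges from 4.26 in siBACH1 to 59.7 CPM per kb in sgCont.

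*PLAT* (ENSG00000104368.13; GRCh38 chromosome 8, 42175233 to 42207724, minus strand), which encodes tissue-type plasminogen activator, had the largest called fall among the members in both experiments. It stood at 261.2, 92.1 and 284.2 CPM in siCont replicates 1 to 3 and at 33.4, 33.5 and 28.2 CPM in siBACH1. The groups did not overlap, although siCont replicate 2 was the lowest of the 6 control libraries. On average it fell from 212.5 ± 104.9 to 31.7 ± 3.04 CPM (SD, 3 libraries each), 6.72-fold (log2 -2.75 ± 0.35 SE, edgeR adjusted p = 0.000594). Without siCont replicate 2 the log2 fold change was -3.11 ± 0.07. In the knockout experiment *PLAT* stood at 387.0, 340.1 and 395.4 CPM in sgCont and at 129.0, 121.7 and 139.4 CPM in sgBACH1. These groups were far apart, with a mean of 374.2 ± 29.8 CPM against 130.0 ± 8.90, a 2.87-fold fall (log2 -1.52 ± 0.08 SE, edgeR adjusted p = 4.04e-13).

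*PLAU* (ENSG00000122861.11; chromosome 10, 73909177 to 73917497, plus strand), which encodes urokinase, fell by nearly the same amount in both experiments. Its level was 115.5, 122.7 and 115.3 CPM in siCont against 47.8, 60.0 and 56.6 in siBACH1. It was 189.2, 185.0 and 213.8 CPM in sgCont against 80.4, 98.5 and 92.3 in sgBACH1. No library of a BACH1 group reached a library of its control group, and siCont replicate 2 did not stand apart here. The log2 fold changes were -1.11 ± 0.10 (SE, edgeR adjusted p = 7.79e-05) after the siRNA and -1.11 ± 0.09 (edgeR adjusted p = 8.44e-10) in the knockout, 2.16-fold and 2.17-fold lower. The siRNA value was -1.08 ± 0.08 without siCont replicate 2. *PLAU* shares 916 exon bases with *C10orf55* on the opposite strand, and the sources used here do not say whether counting used strand. *C10orf55* itself held 0 to 18 counts per library, against 790 to 3589 for *PLAU*. How reads on shared bases were assigned was not examined, so these low counts do not measure the effect of the overlap. The same holds for the exon overlaps of *SERPINB2* and *MMP1* below.

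*PLAUR* (ENSG00000011422.7; chromosome 19, 43646095 to 43670547, minus strand), the surface receptor that concentrates urokinase, fell after the siRNA. It stood at 78.7, 113.9 and 74.4 CPM in siCont and at 53.0, 52.6 and 53.0 in siBACH1. The 3 siBACH1 libraries were nearly alike and below every siCont library, of which replicate 2 was highest. The log2 fold change was -0.76 ± 0.15 (SE, edgeR adjusted p = 0.00679), and -0.54 ± 0.07 without siCont replicate 2. In the knockout experiment the groups overlapped, with 86.7, 79.8 and 95.8 CPM in sgCont and 74.3, 85.6 and 75.9 in sgBACH1, and the difference did not pass the test (log2 -0.15 ± 0.10 SE, edgeR adjusted p = 0.301).

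*SERPINE2* (ENSG00000135919.8; chromosome 2, 223975112 to 224039319, minus strand) encodes protease nexin-1, a serpin that traps urokinase, tissue-type activator and thrombin. It was at 450.2, 536.9 and 443.8 CPM in siCont and at 303.0, 321.3 and 327.8 in siBACH1, which is -0.59 ± 0.09 as log2 fold change (SE, edgeR adjusted p = 0.00168), and -0.50 ± 0.06 without siCont replicate 2. It was at 324.4, 324.3 and 345.5 CPM in sgCont and at 238.1, 254.4 and 266.5 in sgBACH1, or -0.39 ± 0.07 (SE, edgeR adjusted p = 0.00022). In neither experiment did the groups overlap, so an inhibitor fell beside the 2 activators it acts on, by 1.51-fold and 1.31-fold.

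*SERPINB2* (ENSG00000197632.4; chromosome 18, 63871692 to 63903890, plus strand), which encodes the inhibitor PAI-2, was at or near 0. It had 3 counts in siCont replicate 1, 1 count in siBACH1 replicate 3 and 0 in the other 10 libraries. Over the sgCont and sgBACH1 libraries, 0 counts allow a level of up to 0.0607 and 0.0566 CPM (3 counts over the group's TMM-adjusted total, counting error only). A difference between groups was not detectable at this depth. Its exons overlap 547 bases of *SERPINB10* on the same strand, which also held 0 counts.

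*MMP1* (ENSG00000196611.4; chromosome 11, 102789920 to 102798160, minus strand), the interstitial collagenase, was close to the detection limit. It had 50, 5 and 54 counts in siCont and 11, 14 and 15 in siBACH1, so the groups overlapped through siCont replicate 2. The log2 fold change of -1.79 ± 0.63 (SE) did not pass the test (edgeR adjusted p = 0.0697). Without siCont replicate 2 it was -2.28 ± 0.40 and passed (edgeR adjusted p = 0.000102). DESeq2 (adjusted p = 0.0251) and edgeR with no filter on low counts (adjusted p = 0.000936) also called it, and over all 13 alternatives the adjusted p ran from 0.000102 to 0.239. In the knockout experiment it had 8, 0 and 3 counts in sgCont and 0, 16 and 0 in sgBACH1, where 1 library held all counts of its group, and it was not tested. It shares 150 exon bases with *WTAPP1* on the opposite strand, which held 0 to 4 counts per library.

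*MMP7* (ENSG00000137673.4; chromosome 11, 102520508 to 102530753, minus strand) encodes matrilysin, a small metalloproteinase made by epithelial cells. It stood at 184.3, 342.9 and 165.0 CPM in siCont and at 83.9, 79.2 and 81.2 in siBACH1. All siBACH1 libraries lay below the siCont libraries, and siCont replicate 2 was the highest of the 12. The log2 fold change was -1.51 ± 0.24 (SE, edgeR adjusted p = 0.00205), a 2.85-fold fall, and -1.11 ± 0.06 without siCont replicate 2. In the knockout experiment *MMP7* stood in both groups at levels like those of siBACH1, with 88.8, 71.8 and 75.2 CPM in sgCont and 80.8, 76.7 and 80.0 in sgBACH1. These groups overlapped and the difference did not pass the test (log2 0.01 ± 0.10 SE, edgeR adjusted p = 0.956).

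*MMP14* (ENSG00000157227.8; chromosome 14, 22836557 to 22849027, plus strand) encodes MT1-MMP, a membrane-anchored collagenase that also activates pro-MMP2. It stood at 53.2, 63.0 and 51.6 CPM in siCont and at 66.3, 59.4 and 64.9 in siBACH1. The groups overlapped through siCont replicate 2 (log2 0.18 ± 0.10 SE, edgeR adjusted p = 0.252), and without that library the log2 fold change was 0.27 ± 0.08 and passed the test (edgeR adjusted p = 0.0113). In the knockout it fell, from 55.8, 53.1 and 52.4 CPM in sgCont to 39.2, 44.3 and 43.4 in sgBACH1, with no overlap. That log2 fold change was -0.34 ± 0.11 (SE, edgeR adjusted p = 0.0281). The call was lost with no filter on low counts (adjusted p = 0.0557), without sgBACH1 replicate 1, 2 or 3 (0.14, 0.0624 and 0.0701) and without sgCont replicate 1 (0.0805), and over 13 alternatives the adjusted p ran from 0.0111 to 0.14.

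*TIMP1* (ENSG00000102265.7; chromosome X, 47582313 to 47586789, plus strand), an inhibitor of most secreted metalloproteinases, did not pass the test in either experiment. It stood at 102.9, 83.9 and 106.8 CPM in siCont and at 101.1, 91.2 and 85.9 in siBACH1 (log2 -0.08 ± 0.11 SE, edgeR adjusted p = 0.625). It stood at 99.1, 108.3 and 111.5 CPM in sgCont and at 119.8, 107.8 and 105.7 in sgBACH1 (log2 0.07 ± 0.09 SE, edgeR adjusted p = 0.67). The groups overlapped in both. Without siCont replicate 2, the lowest siCont library, the siRNA value was -0.19 ± 0.07 and passed (edgeR adjusted p = 0.0479). *TIMP1* lies within an intron of *SYN1* on the opposite strand, with no shared exon base and at most 3 *SYN1* counts in a library.

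**Figure D3:**
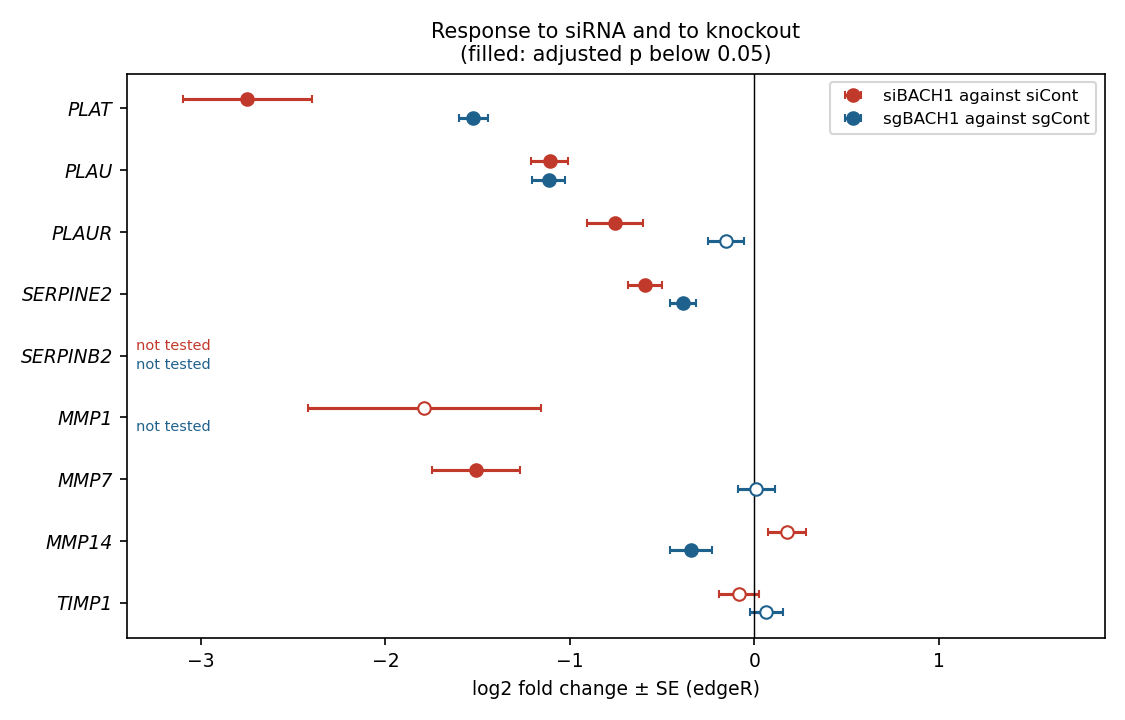
Log2 fold change (horizontal axis, bars show SE) of each of the 9 genes after the siRNA (red) and in the knockout (blue); filled points passed an edgeR adjusted p of 0.05. *PLAU* coincides in both at -1.11, and *MMP7* is at -1.51 and 0.01.

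Whether the responses differed was tested in 1 fit of the 12 libraries, as the knockout log2 fold change minus that of the siRNA, with no shared control library. Of 8 members tested, 3 were called higher and 1 lower, where 23.6% of 15644 genes were called (13.0% higher, 10.6% lower). The difference was 1.51 ± 0.27 for *MMP7* (SE, edgeR adjusted p = 0.00048) and 1.22 ± 0.36 for *PLAT* (adjusted p = 0.0202), the latter being the less deep fall of the knockout. It was 0.60 ± 0.19 for *PLAUR* (edgeR adjusted p = 0.0272) and -0.53 ± 0.14 for *MMP14* (adjusted p = 0.0124). *PLAU* differed by -0.01 ± 0.14, *SERPINE2* by 0.20 ± 0.11, *TIMP1* by 0.14 ± 0.14 and *MMP1* by 2.34 ± 1.60, none of them called. Without siCont replicate 2 the difference was 1.11 ± 0.12 for *MMP7*, 1.58 ± 0.12 for *PLAT*, -0.62 ± 0.13 for *MMP14* and 0.38 ± 0.13 for *PLAUR* (SE), all 4 still called, *PLAUR* at an edgeR adjusted p of 0.0321. The *PLAUR* call was lost without any 1 of siBACH1 replicates 1, 2 and 3, sgBACH1 replicate 2 or sgCont replicates 1 and 2 (adjusted p up to 0.0784), and the *PLAT* call by limma-voom and without any 1 of siBACH1 replicate 3, siCont replicates 1 and 3 or sgBACH1 replicate 3 (adjusted p up to 0.0622). Over their 18 alternatives the adjusted p ran from 0.00315 to 0.0784 for *PLAUR* and up to 0.0622 for *PLAT*.

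**Figure D4:**
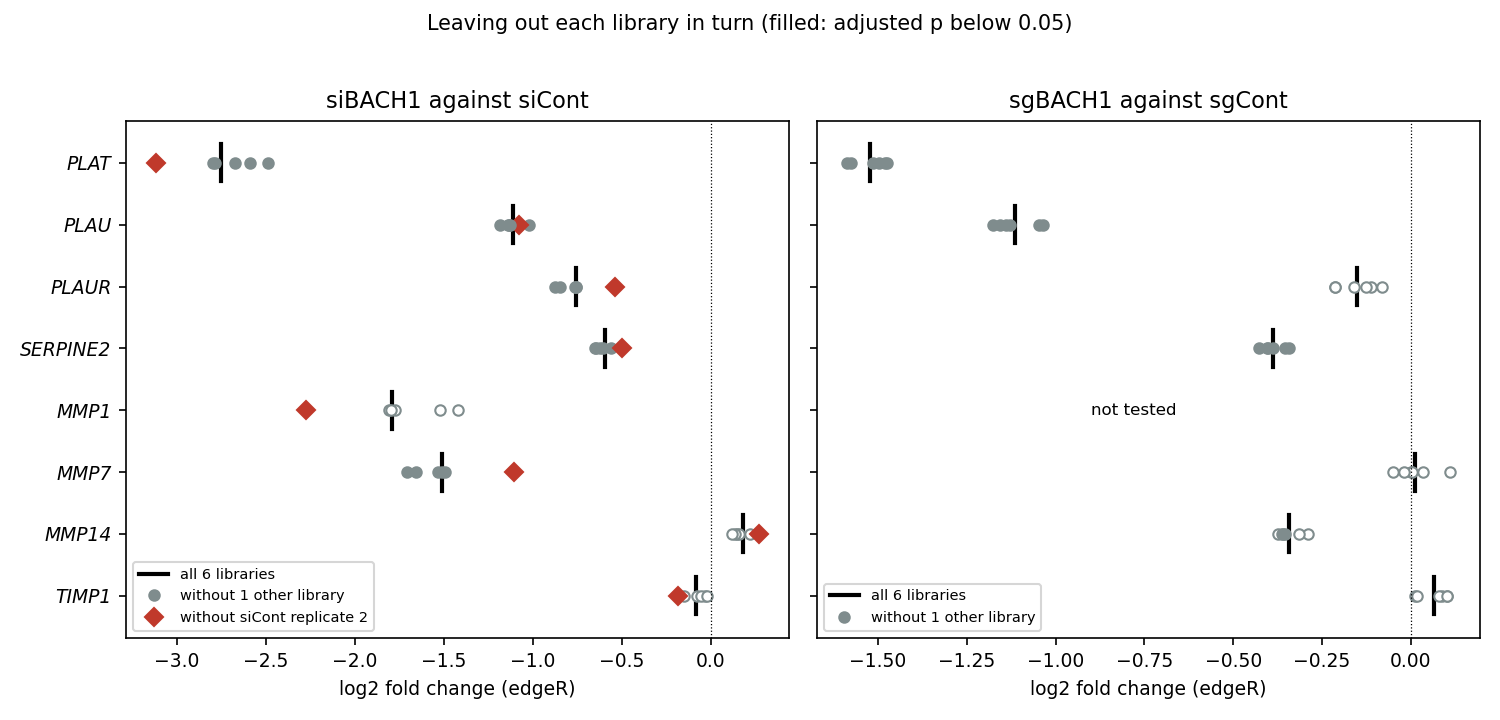
Log2 fold change of 8 of the 9 genes with all 6 libraries of an experiment (black bars) and with each library left out in turn (points; filled points passed an edgeR adjusted p of 0.05; red diamonds leave out siCont replicate 2), left for the siRNA and right for the knockout, on separate horizontal scales. Without siCont replicate 2 *PLAT* moves to -3.11, *MMP7* to -1.11 and *PLAUR* to -0.54, and *MMP1*, *MMP14* and *TIMP1* become filled.

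Genes around the members showed small median changes. Among the 25 tested genes on each side of a member, the median log2 fold change lay between -0.07 and 0.09 after the siRNA and between -0.16 (around *TIMP1*) and 0.11 (around *SERPINB2*) in the knockout. The heptamers AACATTA and ACATTAA, singled out earlier from genes that fell in these same siRNA libraries, were searched in GENCODE 29 3′ UTRs. They were in 55.2% of 1753 called-lower genes with a 3′ UTR in 14% of 1500 called higher and in 21.2% of 8406 not called, against 25.4% of all 11659 tested. None of these shares of called or not called genes is independent evidence, since the heptamers came from the falling genes of the same libraries. *PLAT*, *PLAU*, *PLAUR*, *SERPINE2* and *MMP7*, the 5 members called lower after the siRNA, held 0 matches, and of all 9 members *SERPINB2* alone had any. The longest 3′ UTRs of those 5 ran from 268 bases (*MMP7*) to 932 (*PLAU*). The shares over all genes were not set against UTR length.

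The members did not follow 1 common course over the 12 libraries. As a description, with libraries that share their group and no p, Pearson's r of log2 CPM was 0.92 between *PLAT* and *PLAU* and 0.87 between *SERPINE2* and *MMP7*, but 0.16 between *PLAT* and *SERPINE2* and -0.73 between *MMP14* and *TIMP1*. Every r here also takes in differences between the 2 experiments. *PLAT* and *SERPINE2* fell in both, but *PLAT* averaged 212.5 CPM in siCont and 374.2 in sgCont, and *SERPINE2* 477.0 and 331.4. The part of such differences in r was not tested. Among 11425 genes, the courses most like *PLAT* were those of *CA9*, *HMOX2* and *SLC45A3* (r = 0.99, 0.99 and 0.98). Those most like *PLAU* were *SLC12A2-DT*, *DUSP7* and *QSOX1* (0.98, 0.98 and 0.98), and those most like *PLAUR* were *OASL*, *SLC20A1* and *PDLIM7* (0.96, 0.95 and 0.95). *SERPINE2* was matched best by *CHST11*, *LCN2* and *CD55* (0.97, 0.96 and 0.96), *MMP7* by *ITGB1*, *SLC15A1* and *ARRDC3* (0.97, 0.97 and 0.95) and *MMP14* by *SMAGP*, *RELB* and *RIPK3* (0.97, 0.96 and 0.95). Likeness was lower for *TIMP1*, with *ADPRS*, *MCM7* and *DYNLL2* (0.87, 0.87 and 0.86), and for the sparse *MMP1*, with *CDKN1B*, *ZC3H13* and *ZNF487* (0.90, 0.90 and 0.87). Without siCont replicate 2, r was 0.81, 0.80 and 0.88 for these *TIMP1* pairs. For the *MMP7* pairs it was then 0.93, 0.93 and 0.89, in the order given.

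The wider pathway was covered by 10 lists with 108 genes. After the siRNA 8 of the 70 tested were called higher and 19 lower (38.6% called, where 23.9% of all genes tested were; median log2 fold change -0.14). In the knockout 25 of 71 were called higher and 21 lower (64.8%, where 23.5% of all genes were; median 0.02). For the difference of the responses, 22 of 72 were called higher and 12 lower (47.2%, where 23.6% of all genes were). The counts of single lists below stand against the same shares of all genes. Like the members, the lists were chosen with earlier results of these data known, so their shares carry the same limit. Of the 19 list genes called in both experiments, 12 changed in the same direction and 7 in opposite directions, namely *F3*, *TFPI*, *FOS*, *JUNB*, *FOSL2*, *ADAM19* and *KLK10*. Over all 1155 genes called in both, 667 (57.7%) changed in the same direction, against 63.2% of the list genes. Without siCont replicate 2 all list genes named below for the siRNA kept their call, and the log2 fold changes of *THBD*, *F3*, *TIMP2* and *ADAM19* became -1.35 ± 0.08, -1.05 ± 0.07, -0.96 ± 0.06 and -1.60 ± 0.12 (SE).

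Of 3 other serpins of the lists that were tested, edgeR called 1, the intracellular *SERPINB6*. It rose in the knockout (log2 0.32 ± 0.09 SE, edgeR adjusted p = 0.0104), a call lost without sgBACH1 replicate 1 (adjusted p = 0.0589). Among genes for plasminogen binding and for uptake of activator complexes, 1 of 9 tested rose and 2 fell after the siRNA, and 3 rose and 3 fell in the knockout. *LRP1*, the endocytic receptor that clears activator-inhibitor complexes, rose in both (log2 0.62 ± 0.09 and 1.40 ± 0.11 SE; 72.7 to 112.0 CPM and 45.5 to 119.9 CPM). *SORL1*, a sorting receptor of the same family, fell in both (-0.75 ± 0.10 and -1.20 ± 0.07 SE). The 2 partners of the annexin A2 tetramer, a plasminogen receptor, rose in the knockout, *S100A10* by 0.82 ± 0.07 and *ANXA2* by 0.44 ± 0.06 (SE, edgeR adjusted p = 7.32e-10 and 1.37e-05).

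Of 18 other metalloproteinase genes in the tables, 3 were expressed enough to test in each experiment, but not the same 3. *MMP11* and *MMP15* were tested in both, and *MMP24* in the knockout but not after the siRNA. Of those tested, 1 rose and 0 fell after the siRNA, and 1 rose and 2 fell in the knockout. *MMP15*, the membrane-type relative of *MMP14*, rose in the knockout from 66.0 ± 7.30 to 127.5 ± 4.75 CPM (SD), or by 0.95 ± 0.09 on the log2 scale (SE, edgeR adjusted p = 3.48e-08), while *MMP14* fell there. After the siRNA *MMP15* rose by 0.32 ± 0.09 (SE, edgeR adjusted p = 0.0324), a call lost without any 1 of the 3 siBACH1 replicates or siCont replicate 1 (adjusted p up to 0.124). *MMP11*, which encodes stromelysin-3, fell in the knockout from 6.81 ± 2.13 to 3.35 ± 0.289 CPM (SD), or by 1.03 ± 0.33 on the log2 scale (SE, edgeR adjusted p = 0.0267). That call was lost without any 1 of the 3 sgBACH1 replicates or sgCont replicate 3 (adjusted p up to 0.162). *MMP24*, another membrane-type enzyme, fell from 4.42 ± 1.45 to 0.747 ± 0.278 CPM (log2 -2.54 ± 0.50 SE). *TIMP2*, which inhibits metalloproteinases and takes part with MT1-MMP in activation of pro-MMP2, fell in both experiments, from 363.4 ± 59.6 to 170.6 ± 3.47 CPM after the siRNA and from 367.7 ± 17.3 to 268.2 ± 13.6 CPM in the knockout (log2 -1.10 ± 0.11 and -0.45 ± 0.07 SE; edgeR adjusted p = 0.00018 and 3.03e-05). The 3 tested genes of its list were *TIMP2*, *TIMP4* and *BSG*, which encodes the metalloproteinase inducer basigin and not an inhibitor. After the siRNA 2 fell, *TIMP2* and *TIMP4*, the *TIMP4* call being lost without any 1 of the siBACH1 replicates (edgeR adjusted p up to 0.092). In the knockout 2 fell, *TIMP2* and *BSG* (log2 -0.25 ± 0.08 SE, edgeR adjusted p = 0.0147). The *BSG* call was lost without sgBACH1 replicate 1 or sgCont replicate 3 (adjusted p = 0.121 and 0.113).

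The serine protease list held 10 and 11 tested genes, of which 3 rose and 1 fell after the siRNA and 6 rose and 0 fell in the knockout. *TMPRSS2*, a membrane serine protease, rose in both (log2 1.04 ± 0.16 and 1.38 ± 0.37 SE), the knockout call being lost without sgBACH1 replicate 1 (edgeR adjusted p = 0.0631). *ST14*, which encodes matriptase, and *SPINT1*, its Kunitz inhibitor, rose together after the siRNA (0.52 ± 0.09 and 0.53 ± 0.08 SE). The kallikreins *KLK6* (12.4 to 102.2 CPM, log2 3.04 ± 0.12), *KLK7* (1.17 to 11.6 CPM, 3.27 ± 0.36) and *KLK10* (290.9 to 865.1 CPM, 1.57 ± 0.07) rose in the knockout, and *KLK10* fell by 0.38 ± 0.07 after the siRNA (SE). *TMPRSS4* had 0 counts in sgCont and 126 in sgBACH1, a level at least 39.2-fold higher when sgCont is set to 3 counts over the group's TMM-adjusted total.

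Of 8 ADAM and ADAMTS genes tested, 0 rose and 3 fell after the siRNA, and 2 rose and 4 fell in the knockout. *ADAM19*, a membrane sheddase, fell by 1.41 ± 0.19 and rose by 1.63 ± 0.11 (SE), a difference of 3.03 ± 0.24 (edgeR adjusted p = 1.22e-07). *ADAM8* fell in both (-0.63 ± 0.12 and -0.89 ± 0.14 SE), and *ADAMTS15*, a secreted aggrecanase-type protease, fell in the knockout from 57.9 ± 5.45 to 6.47 ± 1.59 CPM. Of 8 cathepsin and cystatin genes tested, 2 rose after the siRNA and 4 in the knockout. *CTSD*, the lysosomal aspartic protease cathepsin D, rose after the siRNA from 120.6 ± 7.39 to 279.1 ± 7.36 CPM (log2 1.20 ± 0.08 SE, edgeR adjusted p = 1.09e-05), and *CTSL*, which encodes cathepsin L, in the knockout by 0.87 ± 0.13. Both furin-type convertases called in the knockout, *PCSK6* and *PCSK5*, fell (-0.92 ± 0.10 and -0.45 ± 0.11 SE), 2 of 4 tested.

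Of 6 genes of the tissue factor pathway and protease-activated receptors tested, 5 fell after the siRNA, and 2 rose and 4 fell in the knockout. *THBD*, which encodes the anticoagulant receptor thrombomodulin, fell in both (log2 -1.90 ± 0.31 and -1.01 ± 0.11 SE). *F2R*, the thrombin receptor PAR1, fell from 136.4 ± 9.02 to 38.6 ± 1.96 CPM in the knockout (log2 -1.82 ± 0.10 SE, edgeR adjusted p = 4.23e-13). Tissue factor, *F3*, and its inhibitor *TFPI* moved alike, down after the siRNA (-1.50 ± 0.26 and -1.06 ± 0.09 SE) and up in the knockout (0.68 ± 0.10 and 0.47 ± 0.09 SE).

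AP-1 and ETS proteins are known regulators of urokinase and metalloproteinase promoters, and all 16 such genes listed were tested. After the siRNA 1 rose and 6 fell (median log2 fold change -0.54), and in the knockout 6 rose and 4 fell (median 0.22). *FOS* fell from 69.9 to 20.5 CPM after the siRNA (log2 -1.77 ± 0.11 SE, edgeR adjusted p = 8.38e-06) and rose from 18.5 to 30.9 CPM in the knockout (0.74 ± 0.17 SE, edgeR adjusted p = 0.00185). *FOSL2* went the other way, by 0.95 ± 0.13 and -0.42 ± 0.08. *FOSL1* fell (-0.88 ± 0.13) and *ETV4* rose (0.84 ± 0.10 SE) in the knockout, and *ETV5* fell in both experiments (-1.18 ± 0.14 and -0.43 ± 0.09 SE).

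**Figure D5:**
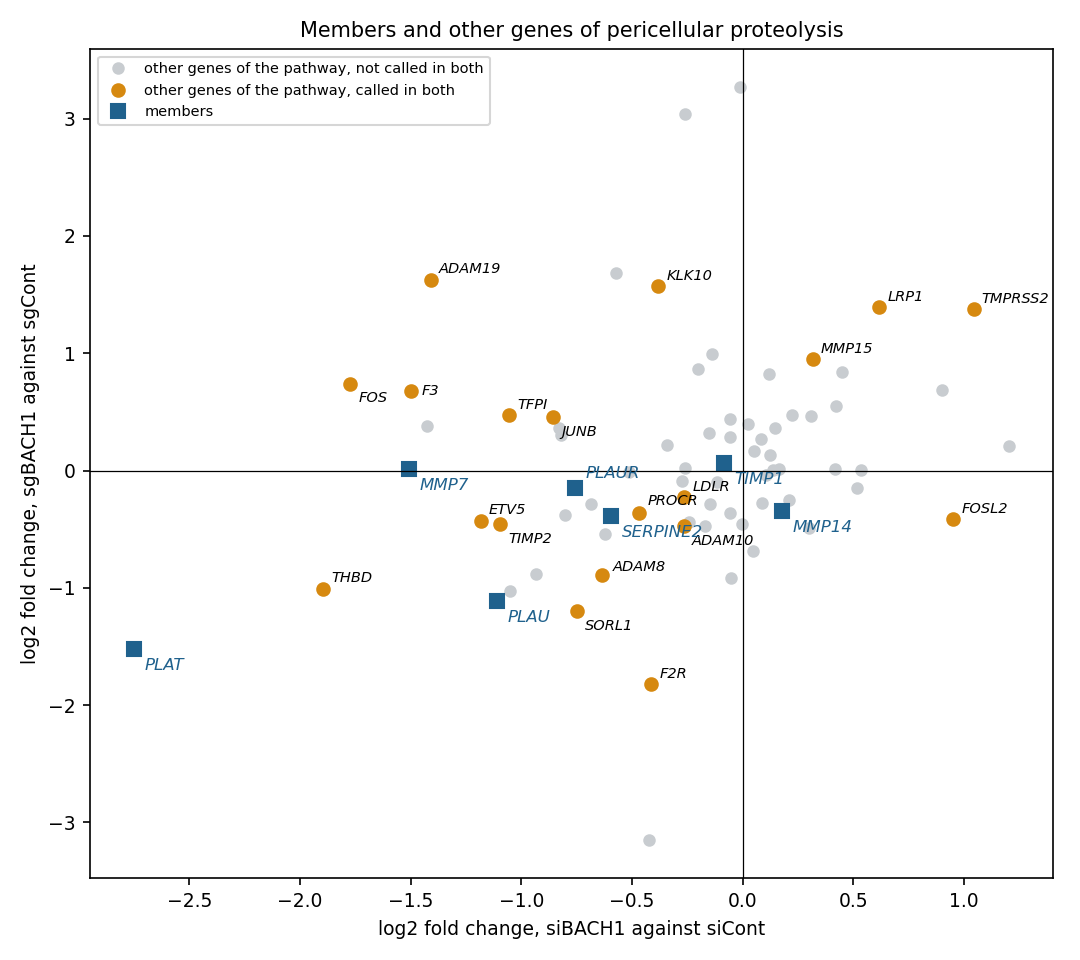
Log2 fold change after the siRNA (horizontal axis) against that in the knockout (vertical axis) for members tested in both (blue squares) and for other genes of the 10 lists tested in both (circles; orange and named where called in both); *TMPRSS4*, with 0 counts in sgCont, is not drawn. *PLAT* lies at -2.75 and -1.52 in the lower left, and *F3*, *TFPI*, *FOS*, *JUNB*, *ADAM19* and *KLK10* lie in the upper left.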

How the data were processed

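The deposited values are raw gene counts, 1 table per experiment. Per the submitters' processing notes, the authors' tools were HTSeq 0.9.1 and SAMtools and the build was hg19; neither aligner nor strand setting is given in the sources used here. Of 57820 identifiers, 51996 took symbols from current gene names and 342 from GENCODE 29. Coordinates are GRCh38 (GENCODE 29, RefSeq GRCh38.p14) and were not set against hg19.

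The test was the two-sided quasi-likelihood test of edgeR 4.0.16 (R 4.3.3) after TMM scaling and filterByExpr with a minimum count of 10. P-values were adjusted by Benjamini and Hochberg over the whole table and called below 0.05. Each experiment had its own fit with no replicate block, and 1 fit of 12 libraries gave the difference of responses. An SE is the size of the log2 fold change divided by the square root of F. CPM are counts scaled by TMM over the 12 libraries. The edgeR step alone was run on simulated counts. They were drawn with its own fitted spread, so that run cannot show how an outlying library acts. Members and lists were chosen with earlier results of these data known, and 1 listed gene is not reported here. Named are the 9 members, *BACH1*, called list genes (by rule the 4 largest changes per list and comparison, and, chosen after their values were seen, those called in both experiments) and, per member, the 3 most correlated genes whose log2 CPM (2 counts added) averaged 1 or more. Alternatives were RLE and upper quartile scaling, no low-count filter, DESeq2 1.42.0, limma-voom (limma 3.58.1), a replicate block, 1 fit of all libraries, and leaving out each library; likeness without siCont replicate 2 was added after seeing the data.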

Additional observations from a re-analysis of the deposited data

Results flagged for a closer look

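Of the genes above, 4 members responded differently to the siRNA and to the knockout by the test of the difference itself (knockout minus siRNA log2 fold change, edgeR). *MMP7* differed by 1.51, with a fall in siBACH1 and no called change in sgBACH1, and its level in sgCont was near that in siBACH1. *PLAT* differed by 1.22, having fallen in both, and *PLAUR* by 0.60. *MMP14* differed by -0.53, with its call in the knockout alone. siCont and sgCont come from different experiments, and the siRNA and the guide differ in agent and delivery. A time of collection is given here for the siRNA groups only. Experiment, agent, delivery and any difference in time cannot be told apart as sources of a difference.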

How the results depend on the processing

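Of the 13 called values of members in the 2 comparisons and the difference, 10 kept their direction and call under every alternative run and 3 lost the call in some: *MMP14* in the knockout and the differences of *PLAT* and *PLAUR*, with the values given above. None changed direction. Leaving out 1 library moved the genes called after the siRNA between 2002 and 5121 (highest without siCont replicate 2), the members called higher after the siRNA between 0 and 1, those called lower between 5 and 7, and the members called higher in the difference between 1 and 3. Fewer libraries enter those fits. Of values not called, leaving out 1 library turned the sign of *MMP7* in the knockout (-0.050 to 0.11) and of the differences of *PLAU* (-0.10 to 0.067) and *MMP1* (-3.15 to 3.45). Of the list genes chosen by rule, 16 of 23 after the siRNA and 27 of 32 in the knockout kept their call under every alternative, and 0 changed direction. Replicate numbers did not pair the libraries (r of deviations at most 0.0465 for equal numbers, over 9 pairs of libraries per experiment). With the numbers as a replicate block 3196, 3530 and 3513 genes were called after the siRNA, in the knockout and for the difference, and members stayed at 0 higher and 5 lower, 0 and 4, and 3 and 1. Depth limits *SERPINB2* and *MMP1*, for which a change could not be measured in the knockout experiment.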
